A study of Mus musculus with 2 samples.

Results

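Oxidative phosphorylation is the mitochondrial process in which electrons pass along complexes I to IV of the respiratory chain and the proton gradient that results drives ATP synthase, complex V. Genes of these complexes were chosen by symbol. Every probe set to which the array's annotation gives 1 gene symbol was taken if that symbol starts with Nduf (complex I), is Sdha, Sdhb, Sdhc or Sdhd (complex II), or starts with Uqcr (complex III), Cox4 to Cox8 (complex IV) or Atp5 (complex V). The choice gave 179 probe sets of 90 genes, out of 18194 genes that have such a probe set. Complex I had 44 of these genes, complex II 4, complex III 8, complex IV 17 and complex V 17. The label fits the members with some qualifications. Of the Nduf genes, 8 encode factors that assemble complex I and are not part of the finished enzyme. Ndufa4 is counted in complex I although its protein is now regarded as part of complex IV. Cox7a2l is counted in complex IV although it encodes a factor that joins complexes III and IV.

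The study used 2 Affymetrix arrays to measure RNA of the mouse jejunum, a stretch of small intestine that absorbs nutrients. The wild-type array carried RNA pooled from 3 mice and the other carried RNA pooled from 3 mice labelled XBP1 knock-out, with the age, strain and type of deletion not given in the sources used here. XBP1 is a transcription factor of the unfolded protein response, and the comparison asks which transcripts of the gut differ without it. RNA came from scrapings, so all cells of the mucosa contributed. Having only 2 arrays limits the precision.

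Complex I takes electrons from NADH and complex II takes them from succinate. Complex III passes them to cytochrome c, and complex IV, cytochrome c oxidase, hands them to oxygen. All but a few core subunits of complexes I, III, IV and V are encoded in the nucleus, and each nuclear-encoded subunit is made in the cytosol and imported. Absorptive enterocytes of the villus are rich in mitochondria, which supply ATP for the sodium gradient that drives nutrient uptake.

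Signals are given in MAS5 units after both arrays were scaled to a common 75th percentile. The floor, below which a signal was treated as not measured, was 68.1 units. A log2 ratio is the knock-out-labelled value minus the wild-type value, so negative values are lower in the knock-out-labelled pool, and a gene was counted as past the threshold at 1.5-fold in either direction. With 1 array per pool no difference has a replicate check and none was tested. Xbp1 itself went from 8143 units in wild type to 6782 on its brightest probe set, which does not check the labels because the position of the deletion is not given. Enterocyte markers were bright on both arrays, with the fatty acid binding protein gene Fabp1 at 78919 and 52947 units. They point to an absorptive epithelium but do not tell the jejunum from other stretches of the small intestine.

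Transcripts of the respiratory complexes were abundant on both arrays, and their signals differed little between the pools. Of the 90 genes, 86 were measured, 85 of them with signals above the floor on both arrays. Their median log2 ratio was -0.19, beside -0.11 for all 12826 measured genes, and 63 of the 86 ratios, or 73.3%, were below 0, beside 60.2% of all measured genes. At least 1.5-fold lower were 5 members, or 5.81%, beside 16.3% of all measured genes. At least 1.5-fold higher were also 5 members, 5.81%, beside 7.84% of all measured genes. At 2-fold, 1 member was lower and 0 were higher, against 5.08% and 2.25% of all measured genes. The middle 50% of members is described by quartiles of -0.34 and 0.01, while those of all measured genes were -0.42 and 0.18.

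Most members are bright, so they were also set beside other bright genes. Signals of 5280 genes were at 8 times the floor or above on each array, and 10.2% of these genes were lower by 1.5-fold or more and 4.19% higher. Of the 75 members in that range, 3 were lower and 0 were higher by that threshold. Those 3 were Ndufa9, Cox6a1 and Atp5o. The other 7 members past 1.5-fold were all below 8 times the floor in at least 1 pool.

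**Figure D1:**
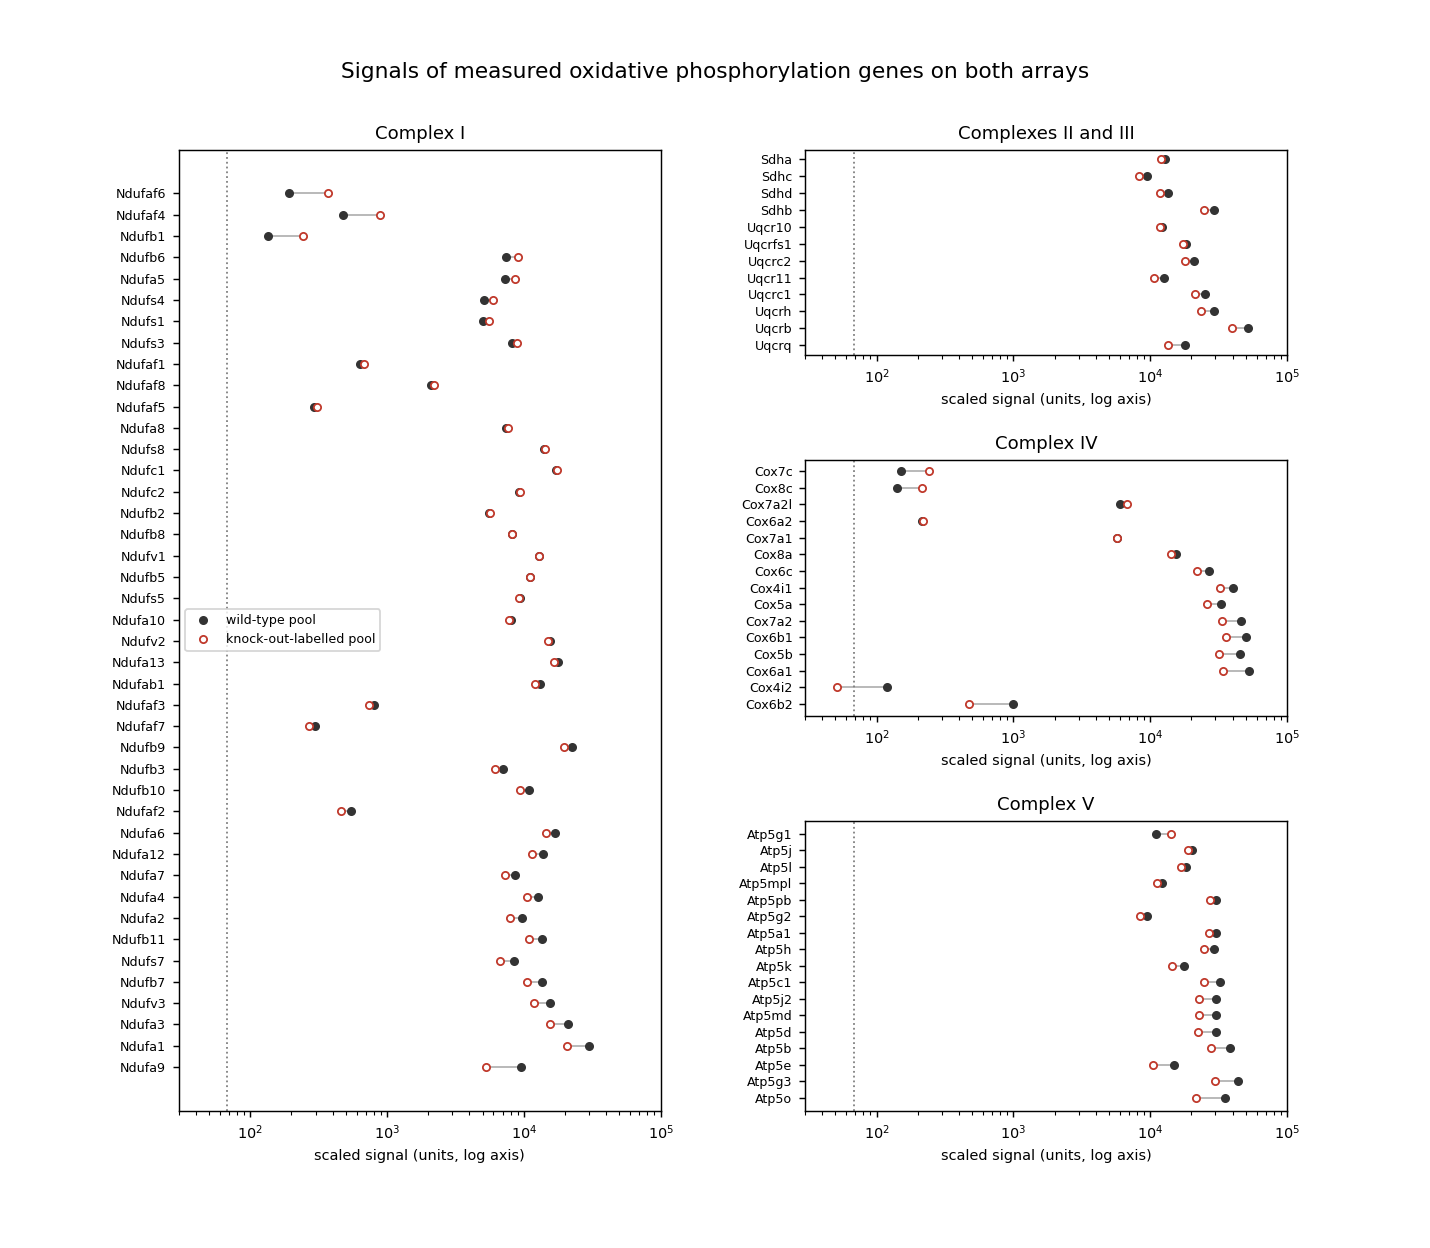
Scaled signals in units on a log axis for the 86 measured genes, with filled points for the wild-type pool, open points for the knock-out-labelled pool and 1 array per point. Genes are ordered by ratio within complexes I, IV and V and within II and III, and the dotted line is the floor of 68.1 units. Most pairs nearly coincide. Visibly apart are, among others, Ndufa9, Cox6b2, Cox4i2 and Atp5o, lower in the knock-out-labelled pool, and Ndufaf4, Ndufaf6 and Ndufb1, higher in it.

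Complex I, the largest complex, had the median nearest to 0 in this scaling, but the one farthest from 0 after quantile normalization, loess and either spike scaling. Its 42 measured genes had a median log2 ratio of -0.05, with 24, or 57.1%, below 0, beside 60.2% of all measured genes. By 1.5-fold or more 1 was lower and 3 were higher, beside 16.3% and 7.84% of all measured genes. The 6 measured core subunits, which carry the flavin and the iron-sulphur clusters, lay on both sides of 0, with a median of 0.02. Ndufv1, the flavin-binding subunit that accepts electrons from NADH, stood at 12943 units in wild type and 12973 in the knock-out-labelled pool, a log2 ratio of 0.00. Ndufs1, the large iron-sulphur subunit, went from 5019 to 5607 units with a ratio of 0.16, and Ndufs3 from 8158 to 8859.8 with 0.12. At the other end of the core, the iron-sulphur subunit gene Ndufs7 went from 8480.1 to 6704 units, a ratio of -0.34. Of the 6 core ratios, 4 were above 0 and 2 below, beside 39.8% and 60.2% of all measured genes.

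Accessory subunits of complex I, which surround and stabilise the core, were more spread. Their 28 measured genes had a median of -0.14, with 19, or 67.9%, below 0, beside 60.2% of all measured genes. Ndufa9, a subunit of the matrix arm, was the lowest gene of complex I, at 9570.4 units in wild type and 5291 in the other pool. That is 1.81-fold lower, on its only probe set. Its ratio was -0.86 in this setting and below 0 under all 10 settings of scaling, floor and probe set choice, reaching -0.07 with the hybridisation spikes made equal. Ndufa1 and Ndufa3, small subunits of the membrane arm, followed. Ndufa1 went from 30061 to 20669 units, a ratio of -0.54. Ndufa3 went from 20965 to 15552 units, a ratio of -0.43, with -0.44 on a second bright probe set and -0.36 on a dim one that stood at 138 and 108 units. On the higher side, the membrane arm gene Ndufb6 went from 7378 to 9121 units, a ratio of 0.31, with 0.36 on the other probe set, and Ndufa5 from 7274 to 8668 units, a ratio of 0.25, with 0.18. Ndufb1 was 1.79-fold higher but dim, at 135 and 243 units on 1 probe set.

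Ndufa4 matches the complex I symbols, although its protein is now regarded as part of complex IV. It went from 12691 to 10594 units, a ratio of -0.26. Its paralog Ndufa4l2, a gene induced by hypoxia in other tissues, was below the floor in both pools at 56.6 and 40.2 units. Ndufb4 was also below the floor on its own probe set, at 3.68 and 10.7 units, while a probe set that it shares with Ndufb4b and Ndufb4c went from 11343 to 9974 units, a ratio of -0.19. Probe sets with several symbols also read Ndufa11, from 7646 to 5996 units with a ratio of -0.35, and Ndufs6, from 7453 to 6308 units with -0.24. They lay outside the choice of members and enter no count.

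Assembly factors of complex I, proteins that build the enzyme and then leave it, held the highest ratios of all members. Ndufaf6 went from 194 to 372 units and Ndufaf4 from 474 to 892 units, 1.92-fold and 1.88-fold higher. For Ndufaf4 another probe set went from 367 to 629.7 units, a ratio of 0.78 beside 0.91, and Ndufaf6 has 1 probe set. Both were above 0 under all 10 settings, although Ndufaf6 had only 0.14 with the floor at the 75th percentile. The other scalings mostly raised ratios, giving 0.91 to 1.70 for Ndufaf4 and 0.96 to 1.73 for Ndufaf6, so they hardly tested the sign. The other 6 factors lay between -0.24 for Ndufaf2 and 0.10 for Ndufaf1, and the median of all 8 was 0.07. As a group the factors did not separate from the subunits in every setting. After loess their medians were 0.09 for factors and 0.11 for subunits.

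Complex II, which also works in the tricarboxylic acid cycle, had 4 genes with ratios between -0.25 and -0.11. The iron-sulphur subunit gene Sdhb went from 29199 to 24542 units and had the lowest ratio. Sdha, which binds the flavin and oxidises succinate, went from 12925 to 11971 units with a ratio of -0.11, and a probe set of nearly equal signal gave 0.06. Sdhc and Sdhd, the membrane anchors, had ratios of -0.20 and -0.21, but the dimmer probe set of Sdhd went from 1188 to 1430.3 units, a ratio of 0.27. All 4 differences were below 1.5-fold.

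In complex III all 8 measured ratios were below 0, beside 60.2% of all measured genes, with a median of -0.25. All 8 genes had mean signals of 10000 units or more. Of other genes, 75.4% were below 0 at 10000 to 20000 units and 94.9% at 20000 or more. None was past 1.5-fold, beside 16.3% of all measured genes lower and 7.84% higher. The lowest ratio was that of Uqcrq, a small subunit, which went from 18047 to 13453 units with a ratio of -0.42. Uqcrh, the hinge protein that contacts cytochrome c, went from 29271 to 23623 units, a ratio of -0.31. Uqcrfs1, the Rieske iron-sulphur protein that takes electrons from ubiquinol, went from 18385 to 17273 units, a ratio of -0.09. Uqcr10 had -0.05 on its brightest probe set, but 0.18 and 0.07 on its dimmer ones. The core proteins Uqcrc1 and Uqcrc2 had -0.25 and -0.22. Uqcrb, a subunit at the ubiquinone-binding site, also depended on the probe set. Its brighter probe set went from 52091 to 39860.0 units, a ratio of -0.39, and the other from 10781 to 12577 units, a ratio of 0.22.

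Complex IV combined widely used subunits with forms restricted to certain tissues. Its 15 measured genes had a median of -0.32, with 11 below 0, or 73.3% beside 60.2% of all measured genes. The 3 genes lower by 1.5-fold or more and the 2 higher stand beside 16.3% and 7.84% of all measured genes, so with 15 genes neither count is far from the background. Among the bright, widely used subunits, Cox6a1 was 1.55-fold lower, at 52775 and 34025 units, and its other probe set went from 30169 to 24333 units, a ratio of -0.31 beside -0.63. Cox5b went from 45603 to 32040.1 units with a ratio of -0.51, and its 3 other bright probe sets gave -0.48, -0.31 and -0.14. Cox6b1 had -0.49, Cox7a2 -0.47, Cox5a -0.35, Cox4i1 -0.32, Cox6c -0.29 and Cox8a -0.13. These 8 bright genes were on the lower side in this scaling, 7 of them by less than 1.5-fold. All but Cox8a had mean signals of 20000 units or more, where 94.9% of other genes were below 0, with a median of -0.44. Cox8a lay between 10000 and 20000 units, where 75.4% of other genes were below 0. After quantile normalization 6 of the 8, all but Cox6a1 and Cox5b, had ratios above 0, and scaling to the hybridisation spikes put all 8 above 0. Cox7a2l, which encodes a factor that joins complexes III and IV, went from 6007 to 6721 units, a ratio of 0.16, while its other probe sets gave -0.16 and -0.15.

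Of the tissue-restricted forms, the testis form Cox6b2 had the lowest ratio of all 86 genes. It went from 993 to 470.1 units on 1 probe set, 2.11-fold lower and the only member past 2-fold. The ratio stayed below 0 under all 10 settings, between -1.08 and -0.30. Cox4i2, the form found in lung, stood at 119 units in wild type and below the floor in the other pool, at least 1.75-fold lower. The muscle form Cox7a1 was level at 5698 and 5675 units, and the heart form Cox6a2 was level and dim at 216 and 219 units. Markers of striated muscle were low, with 3 of 8 below the floor in both pools, namely Actn3, Myh4 and Tnnt3, and with summed signals of 715 and 664 units over the 5 measured. Cox8b, another muscle form, and Cox7b2, a testis form, were below the floor in both pools. Cox8c, also a testis form, was dim at 139.9 and 215 units, 1.53-fold higher. Cox7c, a widely used subunit, was read only by dim probe sets, 1 from 151 to 241 units with a ratio of 0.68 and the other with -0.15, so its direction was not settled.

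Complex V, the ATP synthase, had 17 genes, all measured, and a median of -0.30. Ratios were below 0 for 16 of them, or 94.1%, beside 60.2% of all measured genes. All but 1 of the 17 had mean signals of 10000 units or more. Of other genes, 75.4% were below 0 at 10000 to 20000 units and 94.9% at 20000 or more. By 1.5-fold or more 1 gene was lower and 0 were higher, beside 16.3% and 7.84% of all measured genes. Atp5o, which encodes the protein that couples the peripheral stalk to the catalytic head, was 1.63-fold lower. It went from 34999 to 21504 units with a ratio of -0.70, while the dimmer probe set went from 12985 to 10368 units, a ratio of -0.32. The 5 genes of the catalytic head had a median of -0.44. Atp5e had the lowest of these ratios, -0.51, at 14995 and 10512 units, followed by the catalytic beta subunit gene Atp5b with -0.46, at 38279 and 27912 units. Atp5a1, the alpha subunit gene, went from 30315 to 26881 units with a ratio of -0.17. Stalk and membrane subunits reached from -0.70 for Atp5o to -0.09 for Atp5j, which encodes a subunit of the peripheral stalk. Atp5l, a membrane subunit gene, had -0.10.

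The c-ring, the rotor that turns as protons pass through the membrane, is built from identical subunits that 3 genes encode with the same mature protein and different import signals. These genes did not share a direction. Atp5g1 went from 11056 to 14074 units, a ratio of 0.35 and the only one above 0 in complex V. Atp5g2 went from 9395 to 8369 units, a ratio of -0.17, and Atp5g3 from 43885 to 29906 units, a ratio of -0.55. The ratio of Atp5g1 exceeded that of Atp5g3 by 0.90, and by between 0.61 and 0.90 over the 9 settings in which both were measured. Each of the 3 genes rests on 1 probe set well above the floor.

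**Figure D2:**
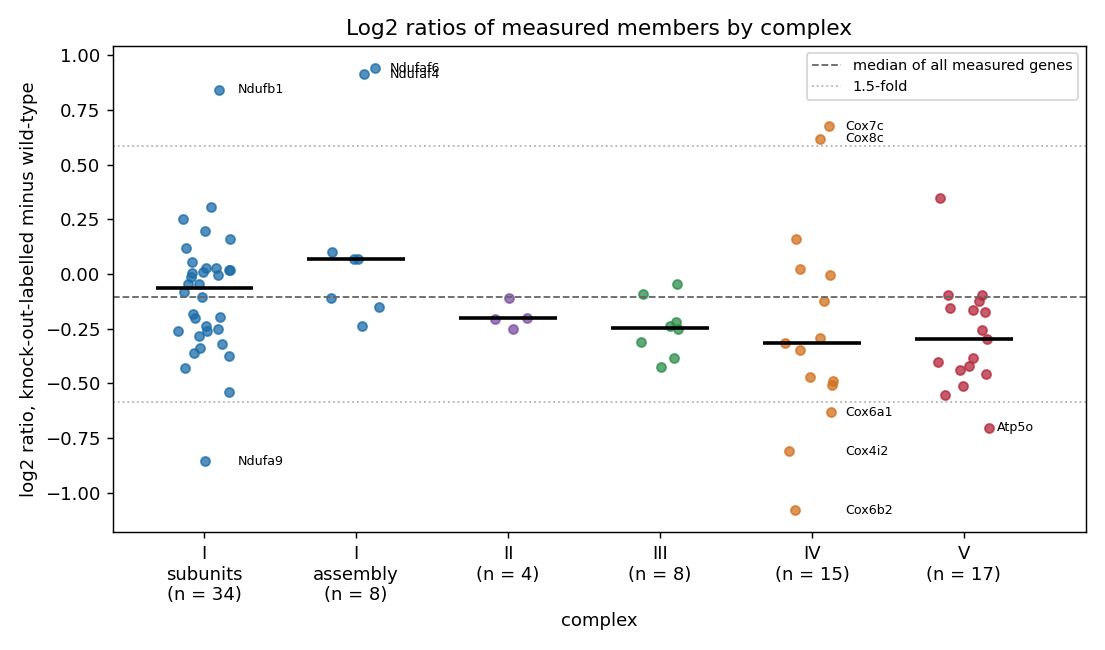
Log2 ratios of the 86 measured genes, 1 point per gene, by complex, with assembly factors of complex I apart. Thick bars are medians, the dashed line is the median of all measured genes at -0.11, dotted lines mark 1.5-fold, and genes past it are named. Medians run from 0.07 for assembly factors to -0.32 for complex IV.

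Promoter sequence was set beside these values because subunit genes are known targets of the factors NRF1, GABP of the ETS family, ERR and YY1. RefSeq promoters of build GRCm38.p6 matched 74 of the 90 members with 79 windows, each the 250 bases before a start. Both strands were searched for exact matches, and no searched motif contains another. The NRF1 motif was present in 16.5% of member windows and in 3.74% of all 32851 windows, or 5.18% of protein-coding ones. The ETS motif CCGGAAG was present in 17.7% of member windows, 6.91% of all and 8.98% of protein-coding ones. The ERR motif TCAAGGTCA was in 1.27% of member windows, that of Atp5g3, and in 0.387% of all, and the YY1 motif in 0 and 0.207%. The median GC content was 57.6% for member windows, 55.6% for protein-coding ones and 52.4% for all. A match is a description of letters only.

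The promoters of the c-ring genes are shown because these genes encode the same protein and differed in ratio, and those of Ndufaf4, Cox6a1 and Atp5o because these genes were past 1.5-fold with more than 1 probe set of the same sign. Capitals mark motif matches. The windows lie at chr11:96075632-96075881 for Atp5g1, chr15:102671048-102671297 for Atp5g2, chr2:73911327-73911576 for Atp5g3, chr5:115348959-115349208 for Cox6a1 and chr16:91931631-91931880 for Atp5o, all on the minus strand, and at chr4:24897833-24898082 on the plus strand for Ndufaf4.
Atp5g1: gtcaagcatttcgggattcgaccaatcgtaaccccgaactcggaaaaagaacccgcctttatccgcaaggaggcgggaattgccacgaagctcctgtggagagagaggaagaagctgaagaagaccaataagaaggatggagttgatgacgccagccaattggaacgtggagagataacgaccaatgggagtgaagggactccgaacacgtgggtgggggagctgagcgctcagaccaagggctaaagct
Atp5g2: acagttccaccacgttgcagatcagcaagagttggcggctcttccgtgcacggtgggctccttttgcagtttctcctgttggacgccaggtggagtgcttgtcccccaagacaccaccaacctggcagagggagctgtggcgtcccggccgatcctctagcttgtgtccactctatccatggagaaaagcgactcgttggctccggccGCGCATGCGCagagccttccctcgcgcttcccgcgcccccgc
Atp5g3: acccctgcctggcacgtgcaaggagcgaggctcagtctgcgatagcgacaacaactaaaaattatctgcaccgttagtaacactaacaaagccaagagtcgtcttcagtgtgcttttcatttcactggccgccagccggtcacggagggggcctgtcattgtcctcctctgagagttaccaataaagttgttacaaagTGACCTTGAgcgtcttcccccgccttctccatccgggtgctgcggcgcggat
Ndufaf4: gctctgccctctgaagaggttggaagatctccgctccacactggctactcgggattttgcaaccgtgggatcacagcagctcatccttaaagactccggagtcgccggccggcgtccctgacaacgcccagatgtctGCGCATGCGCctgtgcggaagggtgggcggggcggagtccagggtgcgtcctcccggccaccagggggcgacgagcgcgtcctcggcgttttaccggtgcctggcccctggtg
Cox6a1: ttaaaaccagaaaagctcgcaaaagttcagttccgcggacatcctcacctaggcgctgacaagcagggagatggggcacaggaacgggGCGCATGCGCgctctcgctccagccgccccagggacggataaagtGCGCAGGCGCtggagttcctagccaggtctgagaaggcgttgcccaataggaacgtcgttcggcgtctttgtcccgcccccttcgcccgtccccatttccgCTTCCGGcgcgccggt
Atp5o: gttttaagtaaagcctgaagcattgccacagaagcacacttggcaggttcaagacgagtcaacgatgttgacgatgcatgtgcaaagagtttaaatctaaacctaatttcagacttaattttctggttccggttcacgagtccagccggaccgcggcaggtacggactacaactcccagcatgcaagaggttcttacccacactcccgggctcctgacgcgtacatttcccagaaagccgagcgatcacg
The Atp5g1 and Atp5o windows hold no match. Atp5g2 has an NRF1 match from 42 to 33 bases before the start, and Atp5g3 an ERR match from 52 to 44 bases before it. Ndufaf4 has an NRF1 match from 113 to 104 bases before the start. Cox6a1 has NRF1 matches at 162 to 153 and 117 to 108 bases and an ETS match at 16 to 10 bases before the start. Whether ratios differ between windows with and without a motif was not tested.

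Log2 ratios of the members were lower at brighter signals. Across the 86 genes the log2 ratio correlated with the log2 mean signal with Pearson's r = -0.47 and Spearman's rho = -0.58. Genes are not independent replicates, and all points share the same 2 arrays. Genes outside the complexes also had lower ratios at the bright end, with more scatter. At 5000 units or more Pearson's r was -0.58 over 72 members and -0.21 over 1034 other genes. The 175 other genes with a mean signal of 20000 units or more had a median of -0.44, and 94.9% of them were below 0. The 23 members in that range had a median of -0.39, with all 23 below 0. Between 10000 and 20000 units the medians were -0.20 for 289 other genes and -0.13 for 29 members, and between 5000 and 10000 units -0.11 for 570 other genes and 0.00 for 20 members. Complex I had 2 of its 42 genes in the brightest range, complex IV 7 of 15 and complex V 10 of 17. The order of the medians did not follow these numbers throughout, since complex IV had -0.32 and complex V -0.30. Medians of complexes I and V within a range were -0.20 over 15 genes and -0.11 over 6 at 10000 to 20000 units, and -0.36 over 2 genes and -0.41 over 10 at 20000 units or more. At 5000 to 10000 units complex I had 0.01 over 16 genes, and the only gene of complex V had -0.17. Over all members the median of complex I exceeded that of complex V under all 10 settings, by 0.13 to 0.25.

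**Figure D3:**
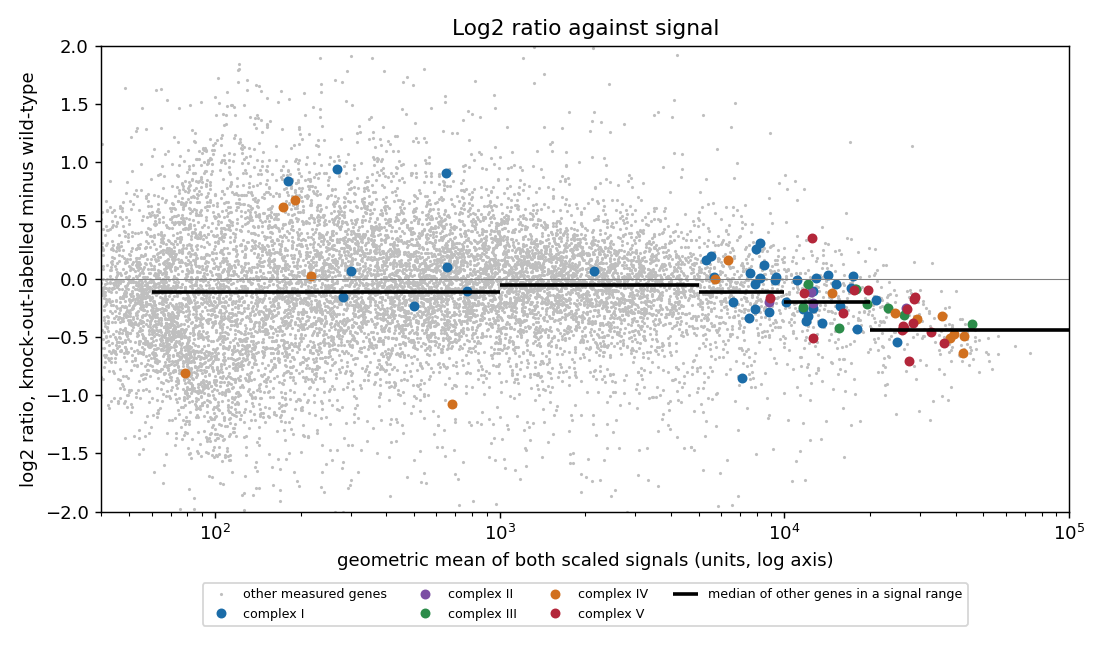
Log2 ratio against the geometric mean of both scaled signals in units on a log axis, with members coloured by complex and other measured genes in grey. Black bars are medians of the other genes within 5 signal ranges, and points beyond a ratio of 2 in either direction are not drawn. Members at 20000 units or more lie around -0.39, close to the bar at -0.44.

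Different probe sets of the same gene were compared in the same way. With probe sets above 2 times the floor, 44 members had more than 1, and all probe sets had the same sign for 32 of them. The pooled SD between probe sets of a gene was 0.25 for members and 0.38 for 3990 genes overall. Where the brightest probe set of a member reached 20000 units, the second brightest gave a higher ratio for 13 of 16 genes, by a median of 0.12. Over all genes of that brightness it was higher for 77 of 105, by a median of 0.11. These comparisons were chosen after the values were seen. Ndufs8 and Ndufv2 had the widest disagreement. Ndufs8 gave -1.55 on a dim probe set, 0.45 on another and 0.03 on its brightest. Ndufv2 gave 0.66 on its dimmest probe set and -0.05 on its brightest.

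**Figure D4:**
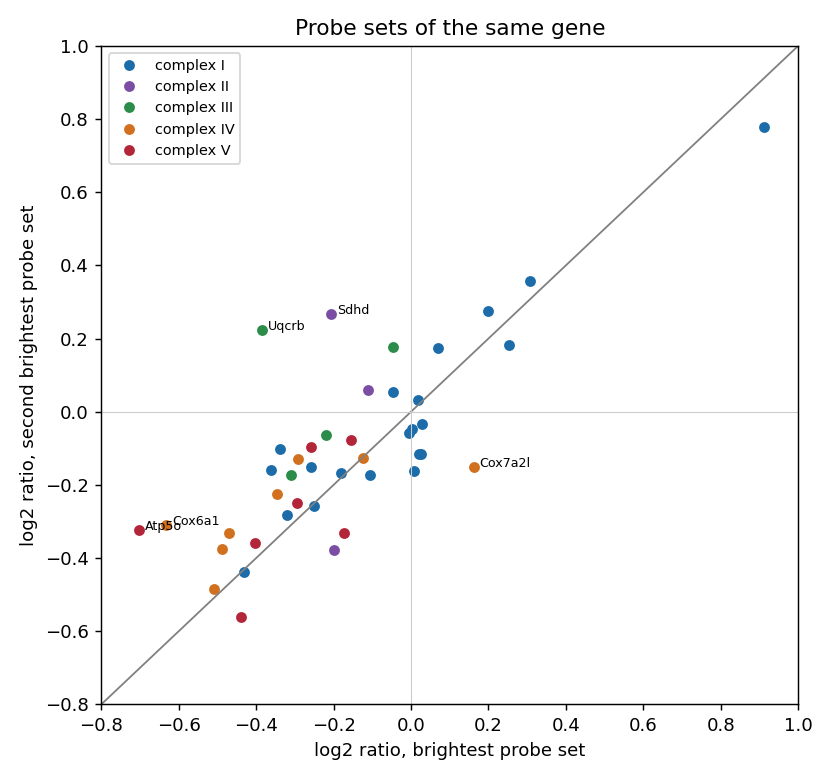
Log2 ratio of the second brightest probe set against that of the brightest, 1 point per gene for the 44 members with more than 1 probe set above 2 times the floor. The point of Atp5c1, at -0.38 on the brightest and -1.08 on the second, lies beyond the axis and is not drawn. The diagonal marks equal ratios, drawn genes that differ by over 0.25 are named, and Uqcrb and Sdhd change sign between probe sets.

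Scalings that adjust for signal turned the small shift of the members. After loess on mean signal the median of all members was 0.05, and after quantile normalization it was 0.08, with -0.06 and -0.01 for all measured genes. The medians of complexes II, III and IV turned positive with it, at 0.03, 0.03 and 0.01 after loess, while that of complex V was -0.05. No direction is therefore given for a complex as a whole. Genes that kept their sign in every setting in which they were measured included Ndufa9, Cox6b2 and Cox4i2 on the lower side and Ndufaf4, Ndufaf6, Ndufb6, Ndufa5 and Atp5g1 on the higher side. The 2 sides are not equal. All 5 other scalings raised the median of all measured genes, from -0.11 to between -0.06 and 0.62. Staying above 0 was therefore an easy condition and staying below 0 a hard one.

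Genes around the complexes were described by lists drawn up for mitochondrial pathways. Assembly factors of complex I without a Nduf symbol had a median of 0.28 over 9 genes. Above 0 were 8, or 88.9%, beside 39.8% of all measured genes. Past 1.5-fold were 0, beside 16.3% of all measured genes lower and 7.84% higher. Foxred1 was the highest at 0.48 and Nubpl, an iron-sulphur carrier, the lowest at -0.02. Assembly factors of complexes II, IV and V had a median of 0.18 over 27 genes. Above 0 were 19, or 70.4%, beside 39.8% of all measured genes. Of the 27 factors, 3 were at least 1.5-fold higher and 1 was lower, beside 7.84% and 16.3% of all measured genes. Cox18, which inserts a core subunit of complex IV into the membrane, went from 483 to 845 units with a ratio of 0.81, while the copper chaperone gene Sco2 went from 3093 to 1580.3 units with -0.97. Both medians were above 0 under all 10 settings, but each of the other scalings raised them, so those scalings hardly tested the sign.

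Protein import into mitochondria had the highest median of the mitochondrial lists, 0.32 over 20 genes. At least 1.5-fold higher were 6 of them and 0 were lower, beside 7.84% and 16.3% of all measured genes. Hspa9, the motor chaperone that pulls proteins into the matrix, went from 2494 to 6549 units, 2.63-fold higher, and Timm8a1, a chaperone of the intermembrane space, from 755 to 1610.1 units, 2.13-fold higher. The lowest member, Timm44, had -0.33. This list too was above 0 under all 10 settings, with medians from 0.30 to 1.10, and here too each of the other scalings raised the median.

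A list of ADP, ATP and phosphate carriers, outer membrane channels and uncoupling proteins had a median of -0.32 over 7 measured genes. Of these ratios 6, or 85.7%, were below 0, beside 60.2% of all measured genes, and the median was that of the channel gene Vdac2. That direction depended on the scaling, since the median was 0.05 with 5 of 7 above 0 after quantile normalization and 0.01 with 4 of 7 above 0 after loess. Slc25a5, the adenine nucleotide carrier of epithelia, went from 57629 to 40146 units with a ratio of -0.52, and Vdac3, an outer membrane channel, was highest at 0.12. The lowest, Ucp3, was measured in the wild-type pool alone and had a ratio of at most -0.60. Tricarboxylic acid cycle genes had a median of -0.07 over 13 genes, from -0.47 for Idh2 to 0.39 for Dld. Of them 0 were past 1.5-fold, beside 16.3% of all measured genes lower and 7.84% higher. Other listed genes of oxidative phosphorylation without a matching symbol, not all of them for subunits, had a median of -0.13 over 12 genes. They reached from Higd2a at -0.55 to Ttc19, a complex III assembly factor, at 0.77. Both medians changed sign with the scaling, to 0.13 and 0.06 after quantile normalization. ND5 was the only measured gene of a list of subunits encoded in the organelle's own genome. It went from 29644 to 24818 units with a ratio of -0.26. That sign also changed with the scaling, to 0.11 after quantile normalization and 0.06 after loess.

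**Figure D5:**
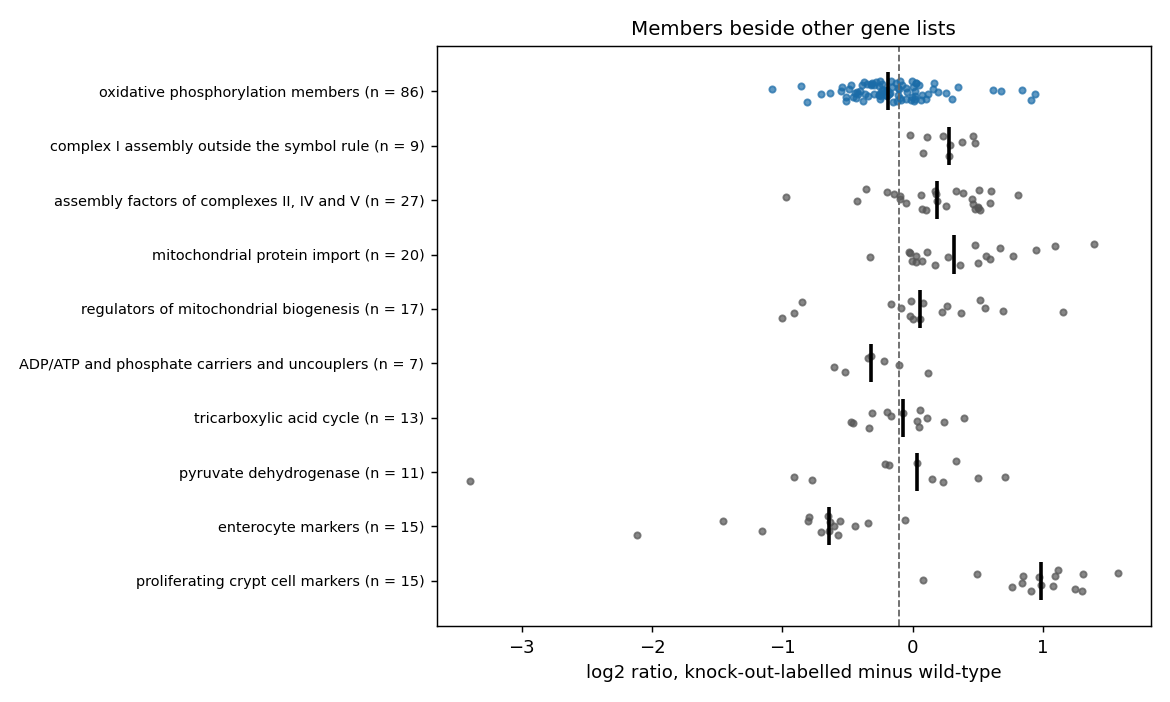
Log2 ratios of measured genes, 1 point per gene, for the 86 members and for other lists, with thick bars at the medians and a dashed line at the median of all measured genes. Protein import has a median of 0.32 beside -0.19 for the members, and enterocyte and proliferating crypt cell markers lie on opposite sides at -0.64 and 0.99.

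Markers of the 2 epithelial compartments differed between the pools beside these values. All 15 measured enterocyte markers had ratios below 0, beside 60.2% of all measured genes. Their median was -0.64, and their summed signal went from 660574 to 419219 units. Most of them were bright, and of other genes at 20000 units or more 94.9% were below 0, with a median of -0.44. All 15 measured markers of proliferating crypt cells had ratios above 0, beside 39.8% of all measured genes. The median of these crypt markers was 0.99, and their summed signal went from 4955 to 9775 units. They were dim, and other genes below 1000 units had a median of -0.11. The part of both marker groups in the values of the members was not tested, and in scrapings fewer cells of a type and less RNA per cell cannot be told apart. The enterocyte median was -0.24 after loess, and scaling to the hybridisation spikes put it at 0.15, so it depended on the scaling as well.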

How the data were processed

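Jejunal RNA of 2 pools, 1 array each, was compared. The authors deposited linear intensity values, 1 for each probe set, made with MAS5, per the submitters' processing notes. The software version was not given in the sources used here. Without the lowest and highest 2%, the mean of either column was 500.0. Each array was scaled to a common 75th percentile (factors 1.03 and 0.967), signals below the 50th percentile of both arrays, 68.1 units, were raised to that value before taking log2. A gene took its probe set with the highest mean log2 signal. Of 45101 probe sets, 34945 have 1 gene symbol and 932 have several. Symbols were updated by Entrez number through RefSeq GRCm38.p6.

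No test was possible with 1 array per group, so p-values are not given. The members, gene lists and thresholds were chosen with earlier results of these data known. Named genes are the brightest, 3 highest and 3 lowest of each complex, all members past 1.5-fold, those whose probe sets differ in sign by over 0.66, the isoform groups, and both ends of each list. Other genes were named for their role after their values were seen. The alternatives were 5 other scalings, 2 other floors, 2 other choices of probe sets and thresholds of 2-fold and 3-fold. Computation used Python 3.11.15, pandas 2.3.3 and statsmodels 0.14.6, and the processing was tested on simulated data.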

Additional observations from a re-analysis of the deposited data

How the results depend on the processing

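Of 85 comparisons between a summary value and its alternative, 47 moved by less than 0.1 (medians) or stayed within 1.5 times (counts), although among them the complex I median changed sign, to 0.050 with the values as deposited. After quantile normalization the member median was 0.076, and 0.089 above that of all genes, with 3 genes lower by 1.5-fold and medians of 0.11, 0.070, 0.065, 0.066 and -0.019 for complexes I, II, III, IV and V. After loess these were 0.048, 0.10, 3 genes, and 0.10, 0.034, 0.028, 0.012 and -0.053. Scaling to the 18 hybridisation spikes gave a member median of 0.59, with 0 genes lower, 44 higher and complex medians of 0.74, 0.58, 0.54, 0.47 and 0.49. Scaling to the 27 labelling spikes gave 0.14, with 2 genes lower and medians of 0.28, 0.13, 0.082, 0.010 and 0.032. In both, all measured genes shifted too, to 0.62 and 0.20. The floor at the 75th percentile left 1 gene higher. Probe sets without a suffix gave -0.13 for complex III and -0.17 for complex V. At 2-fold 1 gene was lower and 0 higher, and at 3-fold 0 and 0. The cause of the scaling effects was not tested. No paired analysis was possible because each group has 1 array. Signals near the floor limit the dim members, Ndufb1, Cox4i2, Cox7c and Cox8c among them.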

Other observations

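Control of pyruvate entry and of mitochondrial biogenesis was described by 2 further lists. The pyruvate dehydrogenase list had a median of 0.04 over 11 measured genes. Beyond 1.5-fold, 3 of them lay on the lower side and 1 on the higher, beside 16.3% and 7.84% of all measured genes. The lower ones were the inhibitory kinase genes Pdk4, from 1232 to 117 units with a log2 ratio of -3.40, and Pdk2, with -0.91, and the phosphatase gene Pdp2, with -0.77. The kinase gene Pdk1 was highest at 0.71. Regulators of biogenesis had a median of 0.06 over 17 genes, with 3 beyond 1.5-fold on the lower side and 2 on the higher. With 17 genes neither count is far from the 16.3% and 7.84% of all measured genes. Pprc1, a coactivator related to PGC-1, went from 132 to 294 units, a ratio of 1.15, and Ppargc1b, which encodes PGC-1 beta, from 992 to 1603 units with 0.69. At the lower end Ppara, a nuclear receptor of fatty acid oxidation, went from 1536 to 766 units, Esrrg had at most -0.91 at the floor, and Esrrb had -0.85. Ppargc1a, Nrf1 and Esrra had 0.00, 0.06 and -0.16.

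Markers of other cell types had medians of -0.64 over 8 goblet cell genes, -0.23 over 7 smooth muscle genes, -0.25 over 5 striated muscle genes, -0.50 over 5 T cell genes, -0.43 over 5 B and plasma cell genes and -0.72 over 6 macrophage genes. Of the brown fat markers only Pparg was measured, with 0.08. Paneth cell markers were divided. Itln1 went from 9719 to 609 units with -4.00 and Lyz1, a lysozyme gene, from 41914 to 4373 units with -3.26, while Mmp7 and Ang4 had 0.50 and 0.45. Their median over 6 genes was -0.26, and -0.72 with the floor at the 25th percentile.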
